A study of Caenorhabditis elegans with 2 samples.

Results

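The regions described here are places where the transcription factor subunit NFYA-1 gave a ChIP-seq peak close to genes for 3 kinds of small structural RNA in Caenorhabditis elegans. Overlapping peaks of the list from both replicates pooled were merged. A summit here is the position that the list gives within a peak. A region was kept where its summit lay within 500 bp of a nuclear gene annotated as a tRNA, snoRNA or snRNA gene. The annotation was Ensembl release 115 of WBcel235. The rule kept 273 of 29478 nuclear regions, or 0.926%. Of these, 182 lay near a tRNA gene, 63 near a snoRNA gene and 28 near an snRNA gene, and no region was near genes of 2 classes. The rule went by the position of the summit. The signal entered it where overlapping peaks were merged, at 6 of the 273 members, since the summit of the highest peak was kept.

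The samples were whole young adult hermaphrodites of strain OP404, which is unc-119(tm4063) III and carries the integrated transgene wgIs404. The transgene expresses NFYA-1 with GFP and FLAG at its C-terminal end, and chromatin broken by sonication was precipitated with an antibody against GFP. There was 1 group of 2 biological replicates, with no other genotype or treatment. Whole worms mix all tissues, the peaks follow the tagged protein of the transgene, and the labels do not give the promoter that drives it. Each list before thresholding held 30000 peaks and, by its description, includes background, so a place in a list is not by itself a sign of binding. After merging, the lists of replicate 1 and replicate 2 had 29094 and 29424 nuclear regions, and the read depth is unknown. In this text a rank is the place of a region by the authors' signal value among the nuclear regions of 1 list, with rank 1 the highest.

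NF-Y is a complex of A, B and C subunits that binds CCAAT, mostly in promoters read by RNA polymerase II. Genes for tRNAs, the adaptors that bring amino acids to the ribosome, are read by RNA polymerase III from promoter elements inside the gene, called the A box and the B box. Most snoRNAs guide the modification of ribosomal RNA and many lie in introns of other genes, while snRNAs form the spliceosome or, in the worm, donate the spliced leader that is joined to the start of many messages.

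Sequences of 5 strong regions and of some neighbouring genes are shown. Windows are the 101 bp centred on a summit, on the plus strand, and genes are on their own strand, both from the RefSeq sequence of WBcel235. Capitals in windows mark CCAAT on either strand, so that ATTGG is CCAAT on the minus strand. Capitals in tRNA genes mark the B box word GTTCNANNC, searched on both strands in windows and on the gene's own strand in genes. The windows were those of the tRNA gene region with the highest signal (IV:3552536-3552636), of 3 regions picked because they hold CCAAT near the tRNA genes C10G8.t1 (V:5330413-5330513) and ZK563.t1 (X:3371925-3372025) and the snoRNA gene K11C4.6 (V:6889578-6889678), and of the snRNA gene region with the highest signal (V:14463567-14463667). The choice makes CCAAT look more common than it was, since among the 8 strongest regions of each class it stood in 2 tRNA, 1 snoRNA and 1 snRNA windows.
B0212.t1 summit window: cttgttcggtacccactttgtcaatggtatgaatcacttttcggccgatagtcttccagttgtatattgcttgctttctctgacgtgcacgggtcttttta
C10G8.t1 summit window: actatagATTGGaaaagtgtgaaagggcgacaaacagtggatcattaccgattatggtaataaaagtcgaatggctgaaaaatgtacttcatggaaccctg
ZK563.t1 summit window: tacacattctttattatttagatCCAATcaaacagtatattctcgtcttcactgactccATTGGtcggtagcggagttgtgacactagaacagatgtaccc
K11C4.6 summit window: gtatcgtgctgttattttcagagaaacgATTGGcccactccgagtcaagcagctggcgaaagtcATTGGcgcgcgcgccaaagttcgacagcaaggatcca
F08H9.10 summit window: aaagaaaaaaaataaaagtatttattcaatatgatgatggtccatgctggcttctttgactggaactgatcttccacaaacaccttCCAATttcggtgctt

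The neighbouring tRNA genes are shown for their B box word. The gene B0212.t1 (IV:3552189-3552260, minus strand) makes a proline tRNA and C10G8.t1 (V:5330139-5330210, minus strand) a glutamine tRNA.
B0212.t1 gene: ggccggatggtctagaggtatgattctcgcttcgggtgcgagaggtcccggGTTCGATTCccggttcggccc
C10G8.t1 gene: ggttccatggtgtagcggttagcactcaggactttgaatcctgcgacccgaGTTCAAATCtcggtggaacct
The B box word stood in 587 of 612 nuclear tRNA genes, 95.9%. At the summits the B box word stood in 11 of the 182 windows near tRNA genes, 6.04%, against 4.35% of all nuclear regions. A match is a run of letters, not a measured site.

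Around tRNA genes the listed summits lay beside the genes and rarely on them. The peaks were called against a control file that was not analysed here, so its signal at tRNA genes, and its part in the profile, was not tested. Only 1 summit fell inside a nuclear tRNA gene, where the mean nuclear density of summits would give 13.5 over the same 45835 bp, a ratio of 0.0742. Another 6 lay 1 to 100 bp away, against 35.0 at the mean density, a ratio of 0.172. The ratio was 0.754 at 101 to 200 bp, 1.61 at 201 to 300 bp, 2.03 at 301 to 400 bp and 1.52 at 401 to 500 bp, and came back to 1.18 at 501 to 750 bp. Both replicate lists dipped up to 100 bp and peaked at 301 to 400 bp. They were called separately, but the replicates share the control file.

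In the replicate 1 list the ratio was 0.0752 inside tRNA genes, 0.174 at 1 to 100 bp and 2.19 at 301 to 400 bp. In the replicate 2 list it was 0.223 inside tRNA genes, 0.201 at 1 to 100 bp and 2.03 at 301 to 400 bp. Inside the genes the replicates held 1 and 3 summits. Taken as a whole in the pooled list, the bases up to 100 bp from a tRNA gene held 7 summits, 0.145 times the mean density with an exact Poisson 95% interval of 0.0581 to 0.298. The bases at 201 to 500 bp held 151, 1.72 times the mean density with an interval of 1.46 to 2.01. These bin limits were chosen after the profile was seen, and the intervals cover the counting of summits only.

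**Figure D1:**
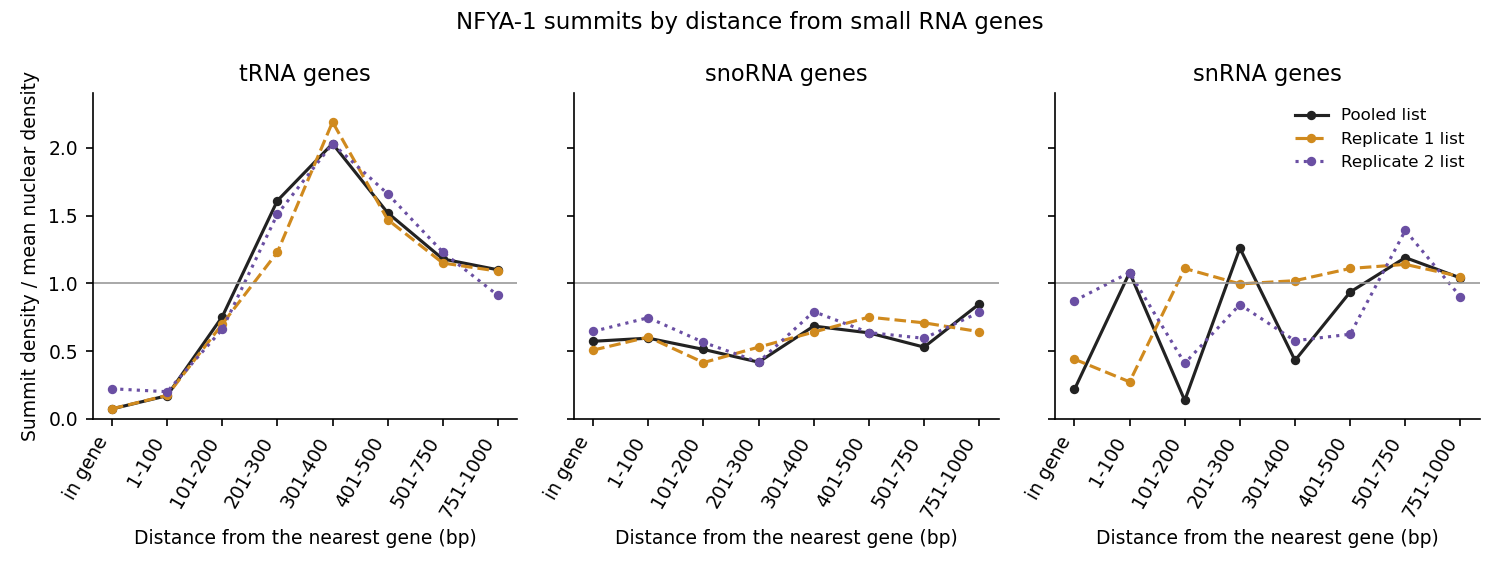
Density of summits, as a ratio to the mean nuclear density of the same list, by distance from the nearest tRNA, snoRNA or snRNA gene (bp), for the pooled list and the lists of replicate 1 and replicate 2. Near tRNA genes all 3 lists are at most 0.223 up to 100 bp and reach at least 2.03 at 301 to 400 bp, while near snoRNA genes they stay below 1 in every bin.

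The dip and the shoulders lay on both sides of the tRNA genes. Of the 182 regions, 93 had their summit upstream of the gene, 88 downstream and 1 inside it, with median distances of 318 bp upstream and 322 bp downstream. The median pooled rank was 13980 upstream and 11771 downstream. At 27 of the 166 tRNA genes with a summit within 500 bp, 16.3%, a summit stood on each side, a median of 734 bp apart. The replicate 1 list had such pairs at 21 of 162 tRNA genes and the replicate 2 list at 24 of 168. Near snoRNA genes the pooled list had them at 4 of 61 genes, 6.56%, replicate 1 at 5 of 63 and replicate 2 at 6 of 68. Near snRNA genes the pooled list had them at 1 of 28, replicate 1 at 3 of 30 and replicate 2 at 3 of 26. The pairs were thus not particular to tRNA genes. In the pooled list the pairs at snoRNA genes were a median of 728 bp apart, and the 1 at an snRNA gene 711 bp apart. The limit of 500 bp and the merging of overlapping peaks bound this separation in every class. No test between the classes was made.

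The pair with the highest ranks flanked the glycine tRNA gene C06B8.t3 on chromosome V, with an upstream summit at 369 bp and a downstream one at 226 bp. The upstream region had signal 27.3 and rank 1582 in the pooled list, rank 15494 in replicate 1 and rank 480 in replicate 2. The downstream region had signal 25.9 and rank 2253 in the pooled list, rank 3163 in replicate 1 and rank 11751 in replicate 2. The replicates thus disagreed on which side was the stronger. On the same chromosome, the alanine tRNA gene C06B8.t1 had an upstream region of rank 3258 and a downstream region of rank 1851, 756 bp apart. That upstream region lay 337 bp from C06B8.t1 but nearer to another tRNA gene, C06B8.t2, at 301 bp. The asparagine tRNA gene R04F11.t1 had ranks 2127 and 4554, 799 bp apart.

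**Figure D2:**
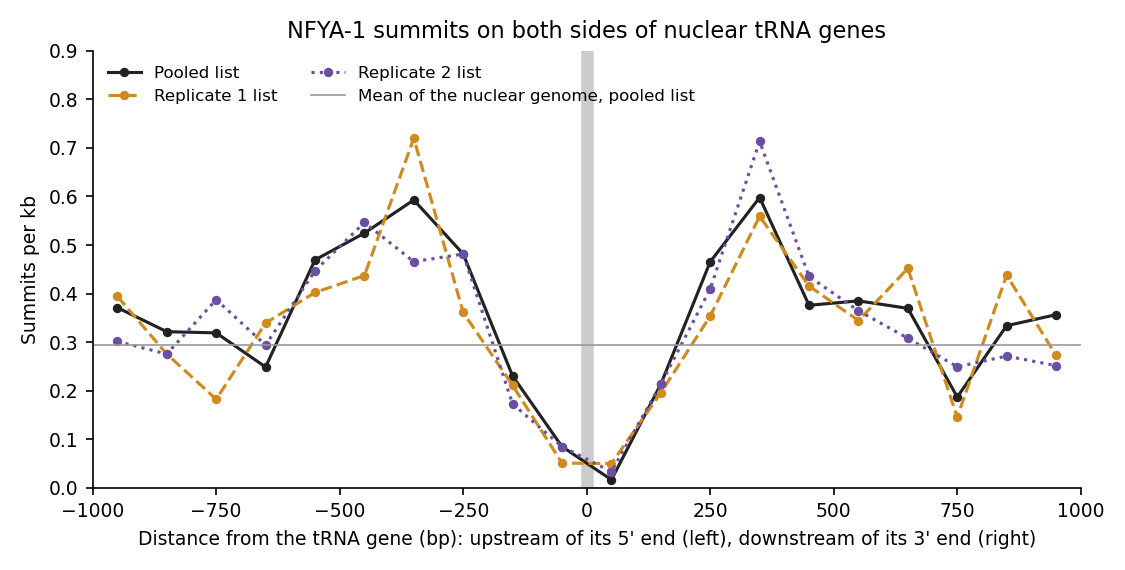
Summits per kb in bins of 100 bp upstream (left) and downstream (right) of the nearest nuclear tRNA gene, for the pooled, replicate 1 and replicate 2 lists, with the mean of the nuclear genome in the pooled list, 0.294 per kb, as a grey line and the gene itself as a grey bar at 0. On both sides the 3 lists lie below the mean within 200 bp of the gene and above it from 200 to 500 bp.

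The share of words of 31 bases found once in the nuclear genome bears on how surely a read can be placed, and the read length is not known here. Inside tRNA genes only 34.2% of such words were unique, against 91.3% of the nuclear genome. At 1 to 100 bp from the genes, where the ratio was 0.172, 96.7% of the words were unique, and at 301 to 400 bp 95.1% were. The GC content was 58.3% inside tRNA genes and 36.1% at 1 to 100 bp, against 35.4% in the nuclear genome. A peak with its summit at 1 to 100 bp can also draw on the gene itself. The part of unique words and of base composition in the profile was not tested.

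The summit inside a tRNA gene was in sup-29, a tryptophan tRNA gene known for suppressor mutations that read the amber stop codon (IV:3681880-3681951, minus strand). Its region had signal 21.4 and rank 6623 in the pooled list, signal 11.1 and rank 3128 in replicate 1 and signal 18.5 and rank 1559 in replicate 2. All 3 lists thus held a peak overlapping the region, at a middle to high rank. The region was merged from 2 peaks and reaches beyond the gene. A replicate rank is that of the highest replicate region overlapping any part of it, so the replicate values may belong to the part outside the gene. The gene is 1 of 10 identical copies and 22.5% of the words at the summit were unique, so the copy that a read came from could not be told there.

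By strength, the tRNA regions stood slightly above the list as a whole. Their median pooled rank was 12238 with a signal of 18.5, against 14740 and 17.5 for all nuclear regions. In replicate 1 the median rank was 9592 over the 118 tRNA regions found there, against 11642 for all nuclear regions found there, and in replicate 2 it was 11053 over 147, against 12015. Among the 5000 highest regions were 44 tRNA regions, 24.2%, 18 snoRNA regions, 28.6%, and 7 of the 28 snRNA regions, together 69 members or 25.3%, where 17.0% of all nuclear regions were. Among the 1000 highest of the pooled list were 9, 4 and 1 in the same order, together 14 or 5.13%, where 3.39% of all nuclear regions were. In the replicate lists the shares were closer to those of all nuclear regions. The 5000 highest of replicate 1 held 19.4% of the members, against 14.8% of all nuclear regions, and those of replicate 2 held 18.3%, against 16.4%. For the snRNA regions the pooled share of 7 of 28 has an exact Clopper-Pearson 95% interval of 10.7% to 44.9%, which spans the 17.0% of all nuclear regions.

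None of the 273 members overlapped the authors' final list, in which 0.241% of all nuclear regions had a place. A count of 0 in 273 allows a share of up to 1.34% (exact Clopper-Pearson 95% interval). The highest member signal was 35.2, below the lowest nuclear signal in the final list, 38.6.

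**Figure D3:**
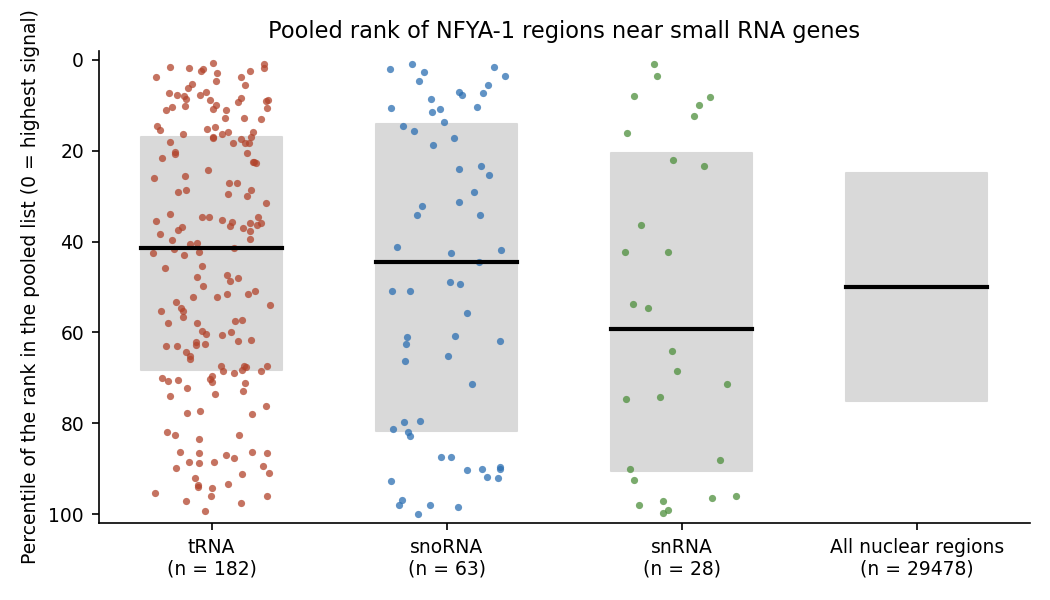
Percentile of the rank in the pooled list (0 is the highest signal) of each region near a tRNA, snoRNA or snRNA gene (points), with the median (line) and quartiles (grey box) of each class and of all 29478 nuclear regions. The class medians are 41.5, 44.6 and 59.3, on either side of that of all nuclear regions, and every class spreads over nearly the whole list.

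The tRNA region with the highest signal lay at IV:3552441-3552730, with its summit 326 bp upstream of the proline tRNA gene B0212.t1 and in a coding exon of osm-9, which encodes a TRP channel used in sensory neurons. It had signal 35.2 and rank 173 in the pooled list and signal 28.2 and rank 48 in replicate 2, and replicate 1 had no peak there. The next, at V:5330318-5330607, lay outside genes, 253 bp upstream of the glutamine tRNA gene C10G8.t1, and its window printed above holds CCAAT. It had signal 33.5 and rank 267 in the pooled list, signal 12.4 and rank 1725 in replicate 1 and signal 18.9 and rank 1379 in replicate 2. Of these 2 regions, only the one at C10G8.t1 was high in both replicates.

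The third, at III:534783-535072, lay outside genes and 454 bp upstream of the tyrosine tRNA gene T22F7.t1, with pooled rank 446, rank 200 in replicate 2 and no peak in replicate 1. The region at II:5773258-5773547, in an intron of the DM-domain gene dmd-5 and 404 bp upstream of the leucine tRNA gene F10C1.t2, had pooled rank 545 and rank 2021 in each replicate. The region at V:19143009-19143298, in a coding exon of cpg-23 and 295 bp downstream of the glutamate tRNA gene Y39B6A.t10, had pooled rank 556, rank 27776 in replicate 1 and rank 97 in replicate 2. In 2 of these 3, the pooled rank went with a high rank in replicate 2 and a low rank or no peak in replicate 1.

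The region at X:10820802-10821091 lay in an intron of plc-1, a phospholipase C gene, 380 bp downstream of the glutamate tRNA gene F31B12.t1, and had pooled rank 578, rank 206 in replicate 1 and rank 3702 in replicate 2. The region at X:3371830-3372119, in a coding exon of ZK563.2 and 482 bp upstream of the threonine tRNA gene ZK563.t1, had pooled rank 694, rank 7766 in replicate 1 and rank 909 in replicate 2, and 2 CCAAT words in its window. The region at IV:12417398-12417687, in an untranslated exon of F08G5.3 and 223 bp upstream of the glutamine tRNA gene F08G5.t2, had pooled rank 722, rank 273 in replicate 1 and rank 15007 in replicate 2. Among these 8, the regions at C10G8.t1, F10C1.t2 and F31B12.t1 had a rank under 5000 in both replicates. Just inside the limit of 500 bp, the region 498 bp from F59C12.t3 had pooled rank 10485, and just outside it, the region 501 bp from Y71H2AM.t1 had pooled rank 9736.

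The annotation near tRNA genes differed from the list as a whole. The summit was in a coding exon at 65 of the 182 tRNA regions, 35.7%, against 46.7% of all nuclear regions, and outside genes at 69, 37.9%, against 27.8%. Of the bases within 500 bp of a tRNA gene 20.1% were coding exon, against 24.6% of the nuclear genome, and 46.0% lay outside protein-coding genes, against 37.3% of the nuclear genome. The 65 in coding exons had a median pooled rank of 7681, against 12620 for all nuclear regions in coding exons, and the 69 outside genes had 15174, against 16744.

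By amino acid, the share of tRNA genes with a summit within 500 bp ran between 11.9% and 66.7% over the 20 standard amino acids, with 27.1% over all 612 genes. It was highest for tryptophan, at 8 of 12 genes (exact Clopper-Pearson 95% interval 34.9% to 90.1%), phenylalanine, at 7 of 14, and leucine, at 19 of 39 (32.4% to 65.2%). It was lowest for glycine, at 7 of 55 (5.27% to 24.5%), and proline, at 5 of 42 (3.98% to 25.6%), although proline had the region with the highest signal. Most neighbours in this order had intervals that overlap widely, and no test was made. Chromosome X, which holds 276 of the 612 tRNA genes, had a summit at 54 of its genes, 19.6% (15.1% to 24.7%), against 112 of 336 on the autosomes, 33.3% (28.3% to 38.7%). The density at 201 to 500 bp was 1.40 times the mean of X on X and 1.97 times the autosomal mean on the autosomes.

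**Figure D4:**
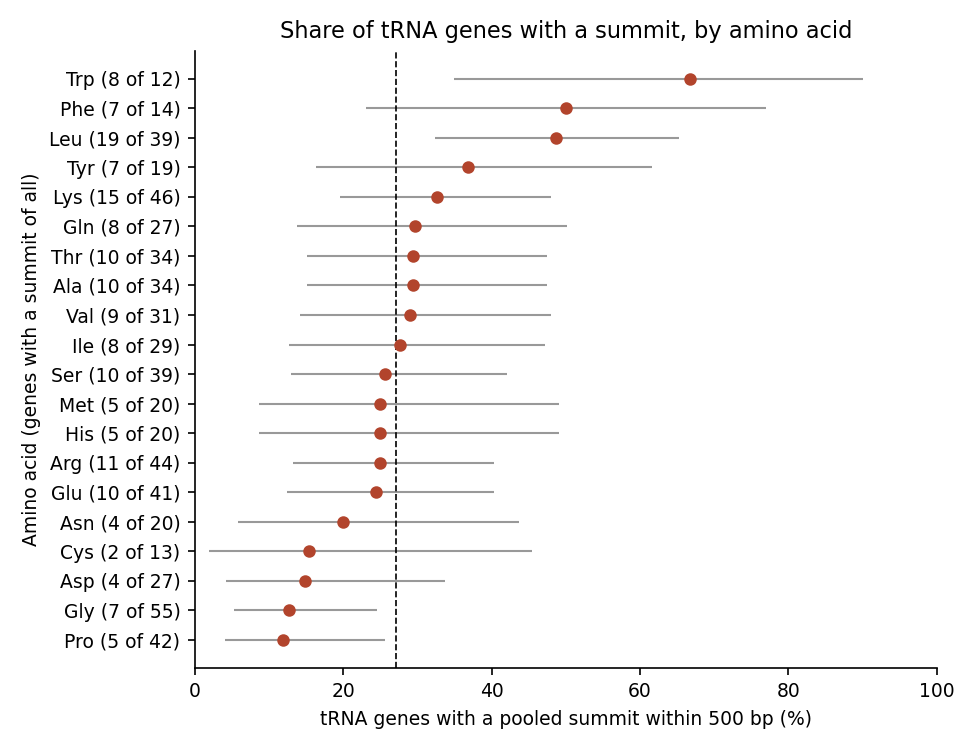
Share of nuclear tRNA genes with a pooled summit within 500 bp (%), by amino acid (standard amino acids only), with exact Clopper-Pearson 95% intervals (grey) and the share over all 612 tRNA genes, 27.1%, as a dashed line. Tryptophan, at 66.7%, and leucine, at 48.7%, have intervals above the dashed line, and glycine and proline have intervals below it.

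Within 500 bp of snoRNA genes summits were sparser than the mean of the genome. The 63 regions made up 0.214% of all nuclear regions, where 0.375% of the nuclear genome lies within 500 bp of a snoRNA gene, a ratio of 0.570, against 1.08 for tRNA genes and 0.703 for snRNA genes. The ratio for snoRNA genes was 0.577 in replicate 1 and 0.634 in replicate 2, and in the pooled list it lay between 0.419 and 0.685 inside the genes and in each bin of 100 bp up to 500 bp. In bins of 50 bp it was above the mean just upstream, at 1 to 50 bp, with 8 summits and a ratio of 1.59 in the pooled list, against 0.805 in replicate 1 and 1.39 in replicate 2. A summit lay within 500 bp of 61 of 346 snoRNA genes, 17.6% (13.8% to 22.1%), against 28 of 129 snRNA genes, 21.7%, 55 of 261 miRNA genes, 21.1%, and 58.4% of protein-coding genes, which are longer.

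Summits fell inside 8 snoRNA genes, against 14.0 at the mean density, a ratio of 0.573. The highest of them was in C27H5.10, in an intron of pdl-1, with pooled rank 4283, rank 24211 in replicate 1 and rank 4564 in replicate 2. Next came Y102A11A.17 on chromosome X, with pooled rank 4635, rank 3119 in replicate 1 and rank 14904 in replicate 2, and its neighbour Y102A11A.16, with pooled rank 8620. The other 5, C17D12.18, Y55F3BL.5, W03B1.17, Y46G5A.40 and F18A1.11, had pooled ranks between 14415 and 28922. Inside snoRNA genes 93.6% of the words of 31 bases were unique.

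The median pooled rank of the 63 snoRNA regions was 13152, and their ranks spread over the whole list. In replicate 1 their median rank was 8521 over the 37 found there, against 11642 for all nuclear regions found there. In replicate 2 it was 11976 over 51, against 12015. Of the 63, 11 lay in the highest 10% of the pooled list and 9 in the lowest 10%. The other bins of 10% held between 3 and 9 each. The region with the highest signal, at III:12727993-12728282, had its summit 24 bp upstream of Y111B2A.36 and in a coding exon of ssl-1, which encodes a chromatin remodelling ATPase of the SWI/SNF type. It had signal 33.4 and rank 274 in the pooled list, rank 2074 in replicate 1 and rank 1556 in replicate 2. It was thus high in all 3 lists.

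Some annotated snoRNA and snRNA genes mostly overlap coding exons of another gene, which sets apart several of the strongest regions. The shares count bases alone, and the strand of the coding exons is not given here. Over 50% of the annotated body lay in coding exons for 17 of 346 snoRNA genes and 7 of 129 snRNA genes, but for none of the 612 tRNA genes. Of the snoRNA genes with a summit 6 of 61, 9.84%, were of this kind, and of the snRNA genes with a summit 6 of 28, 21.4%. So 6 of the 7 mostly coding snRNA genes had a summit within 500 bp. The whole annotated body of Y111B2A.36 and of Y54G2A.74 lay in coding exons, and the Y111B2A.36 gene (III:12728162-12728402, plus strand) is printed for that reason.
Y111B2A.36 gene: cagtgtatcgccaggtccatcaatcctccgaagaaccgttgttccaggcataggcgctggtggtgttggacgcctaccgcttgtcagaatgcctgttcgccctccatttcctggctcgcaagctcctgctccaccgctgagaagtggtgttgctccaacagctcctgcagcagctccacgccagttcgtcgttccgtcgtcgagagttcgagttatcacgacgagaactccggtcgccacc

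The next regions lay in a ribosomal protein gene, outside genes and in another coding exon. At IV:7083950-7084239 the summit was in a coding exon of rps-4, a small ribosomal subunit protein gene, 165 bp upstream of Y43B11AR.7, with pooled rank 460, rank 10144 in replicate 1 and rank 883 in replicate 2. At X:2771816-2772105 the summit was outside genes, 232 bp upstream of F55F1.11, with pooled rank 575, rank 3457 in replicate 1 and rank 1702 in replicate 2. At IV:2838929-2839218 it was in a coding exon of Y54G2A.7, 47 bp upstream of Y54G2A.74, with pooled rank 789, rank 7583 in replicate 1 and rank 429 in replicate 2. Of these 3 regions, only that at F55F1.11 had a rank under 5000 in both replicates.

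At IV:9477916-9478205 the summit was in an intron of cng-3, a cyclic nucleotide-gated channel gene, 362 bp upstream of F38E11.14, with pooled rank 1074, rank 10983 in replicate 1 and rank 902 in replicate 2. At I:2069581-2069870 it was in a coding exon of Y37E3.8, 158 bp downstream of Y37E3.22, with pooled rank 1352, rank 512 in replicate 1 and rank 6277 in replicate 2. At V:6889483-6889772 it was in a coding exon of unc-70, the beta-spectrin gene, 483 bp downstream of K11C4.6, and its window holds CCAAT at 2 places. This region had pooled rank 1641, rank 3777 in replicate 1 and rank 1944 in replicate 2, and stood just inside the limit of 500 bp. The region 502 bp from D1054.17, just outside the limit, had pooled rank 18223. The last of the 8, at IV:866524-866813 near Y55F3BR.9, had pooled rank 2085, rank 1871 in replicate 1 and rank 6223 in replicate 2.

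The 28 snRNA regions were the weakest of the 3 classes by median in the pooled list, at rank 17487 and signal 16.6. In replicate 1 their median rank was 10666 over the 20 found there, against 11642 for all nuclear regions found there. In replicate 2 it was 15364 over 19, against 12015. Of the 28, 8 lay in the lowest 10% of the pooled list and 5 in the highest 10%. The density by distance moved irregularly between bins and between lists, from 0.137 to 1.26 times the mean in the pooled list up to 500 bp, with at most 9 summits in a bin. Both lists of single replicates were irregular too.

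The region with the highest signal, at V:14463472-14463761, had its summit 265 bp upstream of F08H9.10 and in a coding exon of F08H9.4, and its window printed above holds CCAAT. It had signal 33.4 and rank 275 in the pooled list, signal 16.1 and rank 233 in replicate 1 and signal 16.5 and rank 3198 in replicate 2. The next, at IV:16337303-16337592, lay in a coding exon of C35D6.13, 320 bp upstream of C35D6.6, a gene with 79.0% of its body in coding exons. It had signal 28.7 and rank 1070 in the pooled list, signal 11.7 and rank 2369 in replicate 1 and signal 16.4 and rank 3329 in replicate 2. Both regions were thus high in every list.

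A group of 3 regions lay in unc-31 on chromosome IV, which encodes the CAPS protein needed for release from dense-core vesicles and holds the snRNA genes ZK897.2, ZK897.3 and ZK897.4. The region 61 bp upstream of ZK897.3, at IV:12785923-12786212, was in an intron and had pooled rank 2411, rank 1671 in replicate 1 and rank 2489 in replicate 2. The regions at ZK897.2 and ZK897.4 were lower, with pooled ranks 6893 and 21883. The regions at F08H9.10, C35D6.6 and ZK897.3 were the 3 snRNA regions with a rank under 5000 in both replicates. They were 10.7% of the 28, with an exact Clopper-Pearson 95% interval of 2.27% to 28.2%. That interval spans the share of all nuclear regions, 1001 of 29478.

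A second group of 6 regions lay within 5 cytochrome P450 genes of the cyp-34A family on chromosome V, in or near the snRNA genes B0213.22, B0213.23, B0213.24, T10H4.16 and T10H4.17. Cytochromes P450 are oxidising enzymes, many of which act on foreign compounds. The highest of the 6, at V:3962139-3962428, was in an intron of cyp-34A7, 323 bp upstream of B0213.23, with pooled rank 2903, rank 10609 in replicate 1 and rank 2979 in replicate 2. The region at V:3969285-3969574, in a coding exon of cyp-34A9 and 3 bp downstream of B0213.24, had pooled rank 3639, rank 623 in replicate 1 and rank 15364 in replicate 2. These 2 were the only regions of the group among the 5000 highest of the pooled list.

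The summit inside an snRNA gene was that in B0213.22, with pooled rank 12464, no peak in replicate 1 and rank 12054 in replicate 2. The other 3, the second region at B0213.23 and those at T10H4.16 and T10H4.17, had pooled ranks 20198, 26550 and 28289. One snoRNA region lay in the same family, at B0213.18 in cyp-34A8. Pairs of the 5 snRNA genes had identities of 56.9% to 73.3% by edit distance over the longer gene, and no other genes were measured for comparison. Between 84.8% and 93.7% of each body overlaps coding exons, whose strand is not given here. The 5 genes are printed side by side, all on the plus strand, at V:3959420-3959524, V:3962607-3962711, V:3969326-3969427, V:15286431-15286532 and V:15289873-15289967.
B0213.22 gene: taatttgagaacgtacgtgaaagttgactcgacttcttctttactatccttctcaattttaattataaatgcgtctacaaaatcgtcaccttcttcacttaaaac
B0213.23 gene: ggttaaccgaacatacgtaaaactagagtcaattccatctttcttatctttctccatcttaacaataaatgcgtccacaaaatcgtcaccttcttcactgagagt
B0213.24 gene: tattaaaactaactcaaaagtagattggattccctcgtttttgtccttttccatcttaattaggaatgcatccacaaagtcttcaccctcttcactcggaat
T10H4.16 gene: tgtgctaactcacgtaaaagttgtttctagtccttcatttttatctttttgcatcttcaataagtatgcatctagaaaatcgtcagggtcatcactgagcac
T10H4.17 gene: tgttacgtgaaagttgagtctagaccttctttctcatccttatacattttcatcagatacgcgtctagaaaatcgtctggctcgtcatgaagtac
Every word of 31 bases in the 6 summit windows was unique in the nuclear genome, though several of these windows lie outside the printed genes.

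The remaining snRNA regions of the 8 highest were at F56H6.14, F10D2.13 and smy-4. The region 470 bp from F56H6.14, at I:12287099-12287388 in a coding exon of F56H6.2, had pooled rank 2359, rank 11753 in replicate 1 and rank 7574 in replicate 2. The region at V:7142871-7143160, in a coding exon of the glucuronosyltransferase family gene ugt-37 and 158 bp upstream of F10D2.13, had pooled rank 4743, no peak in replicate 1 and rank 1965 in replicate 2. The region at V:14094180-14094469, 294 bp downstream of smy-4, had pooled rank 6492, no peak in replicate 1 and rank 2493 in replicate 2. The regions at F10D2.13 and smy-4 were thus listed in replicate 2 alone.

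The snRNA genes of the spliced leaders had 1 gene with a summit, while the smy genes had 4. None of the 12 sls-1 genes, which make the SL1 spliced leader, had a summit within 500 bp, and of the 18 sls-2 genes, which make SL2, only sls-2.13 had one, at pooled rank 28869, rank 26438 in replicate 1 and no peak in replicate 2. Of the 10 smy genes, whose SmY RNAs are linked to trans-splicing, 4 had a summit, with pooled ranks 6492 at smy-4, 25989 at smy-5, 28424 at smy-11 and 29199 at smy-10. All of these apart from smy-4 lay low in the list. The other 89 snRNA genes had a summit at 23, and no test between the families was made. Inside snRNA genes 40.4% of the words of 31 bases were unique, and genes of the class had up to 14 identical copies. The part of this repeat in the counts was not tested. Just inside the limit of 500 bp, the region 498 bp from H27M09.6 had pooled rank 21057, and just outside it the region 529 bp from sup-39 had 15041.

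The 2 replicates placed the members much as they placed the list as a whole. Both replicate lists held a peak at 91 tRNA, 28 snoRNA and 14 snRNA regions, together 133 or 48.7% of the members, where 43.3% of all nuclear regions were in both. Replicate 1 alone held 42 of the 273 members and replicate 2 alone 84, against 5592 and 9674 of 29478 nuclear regions. In neither list were 14 members, 5.13%, where 4.87% of all nuclear regions were. Over the 133, the ranks in the 2 replicates had a Spearman rho of 0.178, against 0.143 over 12775 nuclear regions. It was 0.0888 over 91 tRNA, 0.160 over 28 snoRNA and 0.666 over 14 snRNA regions, a description of regions that share 2 libraries.

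Ranks within the 10000 highest of both replicates were reached by 23 tRNA, 10 snoRNA and 3 snRNA regions, together 36 or 13.2%, where 9.24% of all nuclear regions did so. Within the 5000 highest of both were 10 tRNA, 3 snoRNA and 3 snRNA regions, against 1001 of 29478 nuclear regions. Together these were 16 of the 273 members, 5.86% (exact Clopper-Pearson 95% interval 3.39% to 9.34%). Within the 1000 highest of both there was none of the 273, where 0.346% of all nuclear regions were. Of the 69 members among the 5000 highest of the pooled list, 33 were among the 10000 highest of both replicates, against 2233 of 5000 nuclear regions.

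**Figure D5:**
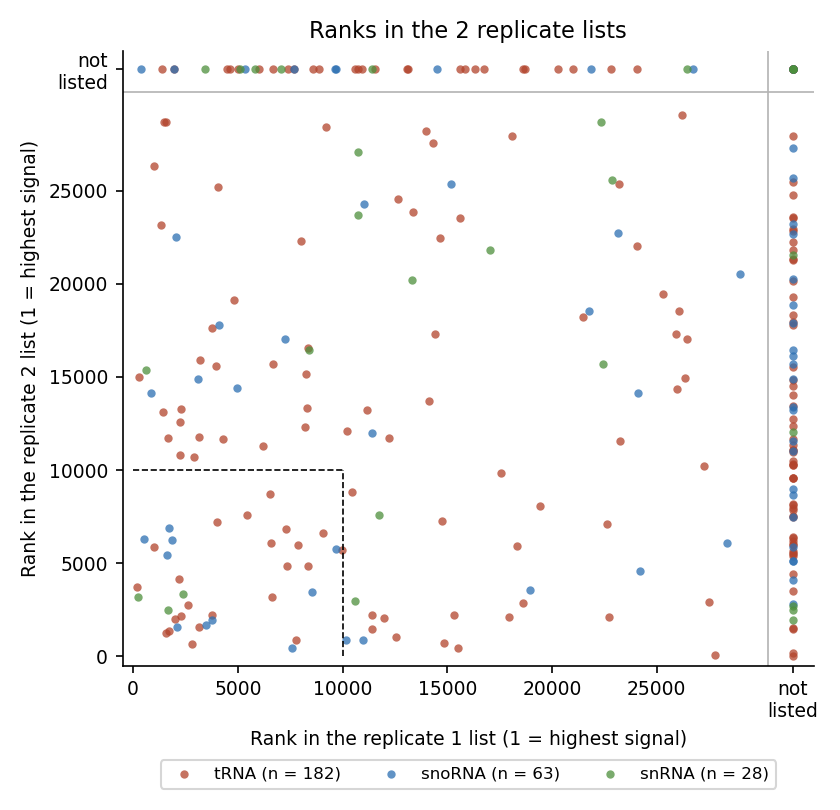
Rank in the replicate 1 list (horizontal) against rank in the replicate 2 list (vertical) of each region near a tRNA, snoRNA or snRNA gene, where 1 is the highest signal and regions with no peak in a list are set beyond the grey line. The dashed square marks the 10000 highest of both lists and holds 36 of the 273 regions, and the 133 points inside both grey lines scatter widely.

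CCAAT, the word NF-Y is known to bind, was about as common at these summits as elsewhere in the list. It stood within 50 bp of the summit in 39 tRNA regions, 21.4%, 12 of the 63 snoRNA regions and 7 of the 28 snRNA regions, together 58 or 21.2% of the members, where 21.7% of all nuclear regions had it. The median GC content of the windows was 38.6% among members and 39.6% among all nuclear regions. Every word of 31 bases in the window was unique in 266 members, 97.4%, against 96.1% of all nuclear regions. A start of a protein-coding transcript, counted from 1000 bp upstream to 200 bp downstream, held the summit of 68 members, 24.9%, against 25.5% of all nuclear regions.

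Genes for the proteins that work with these RNAs were looked at for summits in the same window around their transcript starts. Of 10 genes for RNA polymerase III and its factors found in the annotation 3 had a summit, of 7 for the snRNA activating complex 2, of 5 for snoRNA-protein complexes 1 and of 15 for Sm and Lsm proteins 2, against 33.7% of all protein-coding genes. The highest was at lsm-4, which encodes a ring protein that binds U6 snRNA, with pooled rank 1611, rank 1301 in replicate 1 and rank 3737 in replicate 2, and CCAAT in its window. At fib-1, which encodes fibrillarin, the methyltransferase of snoRNA-protein complexes, it had pooled rank 4319, rank 8939 in replicate 1 and rank 2107 in replicate 2. At tftc-3, a subunit gene of the polymerase III factor TFIIIC, it had pooled rank 4672, rank 15246 in replicate 1 and rank 20113 in replicate 2.

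The other 5 with a summit were lower. At lsm-1 the pooled rank was 5556, at snpc-4, a subunit gene of the snRNA activating complex, 8991, and at snpc-1.1 of the same complex 17233. At brf-1, a subunit gene of the polymerase III factor TFIIIB, it was 13228, and at mafr-1, the worm form of the polymerase III repressor Maf1, 14771. Of the 8 genes with a summit, lsm-4 alone had a rank under 5000 in both replicates.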

How the data were processed

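Peak lists of NFYA-1 ChIP-seq from 2 biological replicates of 1 group were used, on build ce11, the WBcel235 assembly. Per the deposited descriptions, peaks and background were called for each replicate and for both pooled, against a control file that the replicates share. By the same descriptions, the authors cut the final list by its irreproducible discovery rate. The aligner, the peak caller, their settings and the read depth were not given in the sources used here. Each deposited peak carries a signal score from the authors whose scale is not given, so here it only orders and describes the peaks of 1 list. Lists on ce10 were not used here, and builds were not converted.

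Nuclear peaks sharing at least 1 bp were joined, keeping the summit of the highest score, and merging joined peaks in 6 of the 273 members. Genes came from Ensembl release 115. RefSeq gave symbols for all 612 tRNA, 346 snoRNA and 129 snRNA genes, and products for 607, 346 and 129 of them. A member was found in a replicate where a replicate peak overlapped it by 1 bp or more. Words were sought within 50 bp of the summit on both strands. Mean density is all summits of a list over the 100272607 bp of the nuclear genome, except that the values for chromosome X and for the autosomes use the mean of those chromosomes. Intervals are exact 95% intervals (Clopper-Pearson for shares, Poisson for density ratios) and cover counting only. With 1 group of 2 samples no test across samples was possible, so no p-value is given, and members are set beside all nuclear regions.

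Named regions were, in each class, the 8 with the highest pooled score, any among the 1000 highest of both replicates or in the final list, those next to the 500 bp limit, snRNA regions at spliced leader genes, and partner protein genes with a summit. The regions inside genes, the flanking pairs, the smy genes, the unc-31 and cyp-34A groups and the mostly coding genes were chosen after values were seen. So were the amino acids, the distance limits around tRNA genes and the snoRNA bin of 50 bp. Members and gene lists were chosen with earlier results of these data known. Of the partner genes listed, 37 were found in the annotation. Merging, assignment, ranking and word search were tested on simulated data. The tools were edlib 1.3.9.post1, scipy 1.17.1, matplotlib 3.10.9, numpy 2.4.6, pandas 2.3.3 and Python 3.11.15.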

Additional observations from a re-analysis of the deposited data

How the results depend on the processing

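Of 92 alternative values 64 kept within 1.5 times the reported count or within its interval, and 28 moved. With a limit of 250 bp there were 53 tRNA, 33 snoRNA and 13 snRNA members and 8.66%, 10.1% and 10.1% of genes had a summit, while with 1000 bp there were 335, 127 and 60 members and 44.3%, 27.2% and 41.1% of genes. The 15000 highest of the 29478 nuclear regions gave 102, 36 and 12 members, of 182, 63 and 28. In both replicates' 10000 highest regions were 23, 10 and 3 members, together 13.2%, where 9.24% of all nuclear regions were. Among the 1000 highest of the pooled list were 9, 4 and 1, together 5.13%, against 3.39% of all nuclear regions. Among its 10000 highest were 70 tRNA members, 38.5% (exact 95% interval 31.4% to 45.9%), against 33.9% of all nuclear regions. CCAAT within 25 bp stood in 8.79% of tRNA and 9.52% of snoRNA members, against 11.4% of all nuclear regions. Within 100 bp it stood in 39.0% and 34.9%, against 38.6% of all nuclear regions. The tRNA density at 201 to 500 bp was 2.62 times the mean in the 5000 highest regions and, against the mean of that chromosome, 1.40 on chromosome X, settings chosen after seeing the data. It was 1.63 to 1.73 in the replicate lists, where the density up to 100 bp was 0.146 to 0.207. Members defined in the replicate lists numbered 170 to 183 tRNA, 63 to 70 snoRNA and 29 to 33 snRNA regions, and the median percentile of snRNA regions was 45.2 to 56.3, against 59.3 in the pooled list. No paired analysis was possible because there was 1 group. Ranking by the order of lines gave no value, since the lists are sorted by position. The small snRNA class, the unknown depth and scale, and the fixed list length that includes background limit every count.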
